A study of Mus musculus with 2 samples.

Results

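The genes examined were the HoxD members Hoxd1, Hoxd4, Hoxd8, Hoxd9, Hoxd10, Hoxd11, Hoxd12 and Hoxd13. They were taken as every array probe whose name in the files, or current symbol through the accessions in the files, was 1 of these symbols. Where neither gave a current symbol, a name in the files that is a synonym was used, which brought in probe 1 of Hoxd4. This gave 8 genes with 10 probes, of 32993 gene names and 41013 probes in all. RNA came from the posterior part of mouse embryos with 13 somites, removed at a matched axial level behind the most recently formed somite. A pool of 7 Cdx2+/-Cdx4-/- embryos, which carried 1 mutant Cdx2 allele and no intact Cdx4 allele, was compared with a pool of 7 wildtype embryos. The pools were hybridised together on 2 arrays with the dyes exchanged: the mutant pool carried Cy5 on array 1 and Cy3 on array 2. There was 1 pool per genotype, so embryos were not measured singly, the spread between arrays is technical, and no test between genotypes was possible. The labels give no strain and do not say how the alleles were made or whether each array used a new labelling of the same extract.

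Hox genes encode homeodomain transcription factors that give position along the body axis, and in vertebrates they lie in clusters whose order along the chromosome matches the order in which the genes come on in time and from head to tail. Hoxd1 lies at the early, anterior end of HoxD and Hoxd13 at the late, posterior end, where the group 10 to 13 genes act in the lumbosacral axis, the limbs, the hindgut and the genital bud. Cdx1, Cdx2 and Cdx4 encode caudal-type homeodomain factors of the tailbud that are known to bind at Hox clusters and to be needed for growth of the trunk and tail.

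In the mutant pool the posterior genes Hoxd11 and Hoxd13 and 1 probe listed under Hoxd4 had the lowest ratios of the cluster, while Hoxd8 and Hoxd9, in its middle, lay near 0. The size rule counts a probe whose mutant over wildtype ratio is at least 1.5-fold (0.585 on the log2 scale) in the same direction on each array, among detected probes, meaning those well above background by the scanner software's mark in at least 1 genotype on both arrays. Of the 10 HoxD probes, 8 were detected, standing for 6 of the 8 genes; Hoxd10 and Hoxd12 were not. The only HoxD probe past the rule was that of Hoxd11, which was lower in the mutant pool, and 0 were higher. Over the array 128 of 31773 detected probes passed, which is 0.403%, and 65 of these were lower, which is 0.205%. The 128 split into 63 higher and 65 lower; with each array only centred on its median instead of loess-normalised, 30 were higher and 17 lower. The median log2 ratio of the 6 detected HoxD genes was -0.36, against 0.00 over all 26066 detected genes. It was -0.22 on array 1 and -0.39 on array 2, where all genes had 0.01 and -0.02.

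Over both arrays, 5 of the 8 detected HoxD probes were below 0 each time, those of Hoxd13, Hoxd11, Hoxd8 and Hoxd1 and probe 2 of Hoxd4, against 24.3% of all detected probes. None was above 0 on both arrays, and 3 changed sign between the arrays: Hoxd9 and probes 1 and 3 of Hoxd4. By the mean of both arrays 7 of the 8 were below 0 under each way of background correction and normalisation tried, but with median centring only Hoxd13 and Hoxd11 were below 0 on both arrays, against 8.59% of all detected probes. The SD between arrays, pooled over detected probes, was 0.191. No HoxD spot was saturated or marked as an outlier on either array. None of the HoxD probes was past the rule in the dye direction, that is 1.5-fold toward the same dye on both arrays, which 103 detected probes were.

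**Figure D1:**
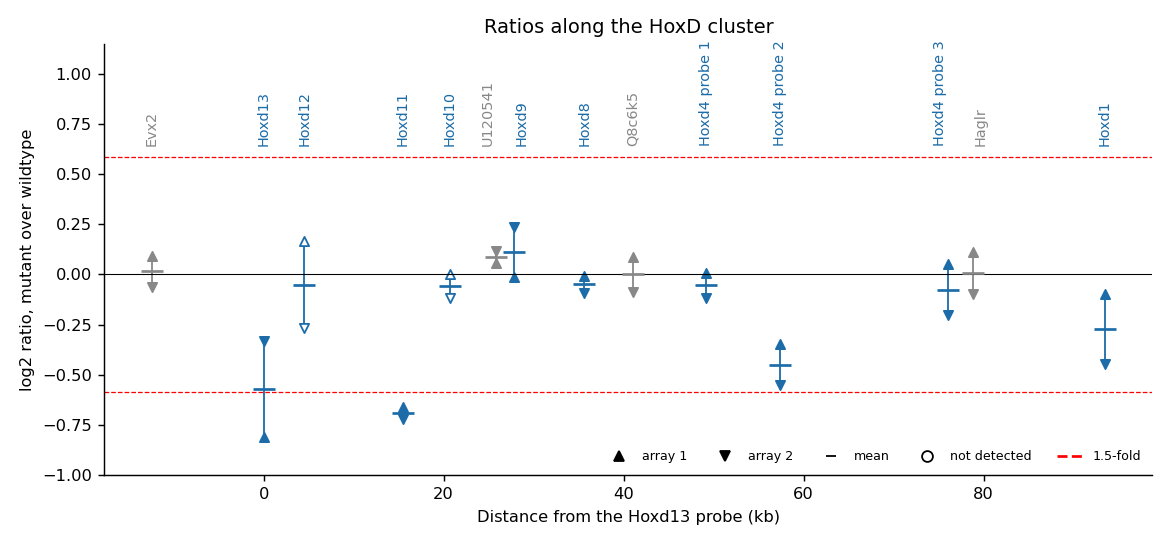
Log2 ratio of mutant over wildtype signal (y axis) against distance in kb from the Hoxd13 probe (x axis), with array 1 and array 2 as triangles, their mean as a bar, HoxD members in blue, other probes of the locus in grey and undetected probes open; red lines mark 1.5-fold. Hoxd11 at -0.66 and -0.72 is the only probe below the lower line on both arrays, Hoxd13 crosses it on array 1 alone, and Hoxd8 and Hoxd9 lie between -0.09 and 0.24.

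The 10 probes cover 93.5 kb of chromosome 2 in the coordinates of the files, for which no genome build is named. Levels are given as normalised signals, the antilog of the normalised log2 intensity of 1 pool on 1 array, in arbitrary units that include the added offset of 50. The negative control spots, 314 per array, had medians of 56.0 to 64.9 on this scale and 95th percentiles of 63.0 to 93.8, depending on the pool and array. Signals of different probes depend on probe sequence and are not set against each other.

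Hoxd13 is the last gene of the cluster, known for its part in digits, the genital bud and the end of the gut. Its probe (chromosome 2, 74565630 to 74565689) had a normalised signal of 216 in the mutant pool and 379 in the wildtype pool on array 1, and of 252 and 317 on array 2. The mutant pool was lower on both arrays, but the arrays differed in size. The log2 ratio was -0.81 on array 1 and -0.33 on array 2, a mean of -0.57 ± 0.34 (SD of 2 arrays) or 1.49-fold lower, so only array 1 reached the size rule. The software's own error-model p, which covers the error of a spot within 1 array and not the embryos, was 2.43e-06 on array 1 and 0.0746 on array 2. Of all detected probes, 0.371% had a lower mean ratio.

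Hoxd11 patterns the lumbosacral vertebrae, the forearm and the kidney together with its paralogs. Its probe (chromosome 2, 74581123 to 74581182, 15.5 kb from that of Hoxd13) gave 75.2 in the mutant pool and 119 in the wildtype pool on array 1, and 90.5 and 149 on array 2. Both mutant values lay below both wildtype values, as they also did for Hoxd13, Hoxd1 and probe 2 of Hoxd4. These are repeat readings of the same pools, and the share of all detected probes with this order was not computed. The log2 ratios of -0.66 and -0.72 averaged -0.69 ± 0.04 (SD of 2 arrays), or 1.62-fold lower, and 0.173% of detected probes were lower. The gene was dim: its mutant signal of 90.5 on array 2 lay close to the 95th percentile of the negative controls in that channel, 87.7, although both pools were well above background on both arrays. Among the 10 equal classes of brightness into which detected probes were put, Hoxd11 lay in class 4, where the SD between arrays was 0.209 and where it was the only one of 3177 probes past the rule and lower (0.0315%). Its mean ratio was -0.48 without background subtraction, where its call was lost, and -1.05 with an offset of 16. In the software's ratio, which differs in background and in dye normalisation, it was -1.68. The software's error-model p was 0.0107 on array 1 and 0.0720 on array 2.

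Hoxd12 and Hoxd10, which lie on either side of Hoxd11 and also belong to the posterior set, were too dim to compare. Hoxd12 (chromosome 2, 74570159 to 74570218) gave 69.4 in the mutant and 61.8 in the wildtype pool on array 1, where neither was well above background, and 79.3 and 95.6 on array 2, where both were. Its log2 ratio was 0.17 on array 1 and -0.27 on array 2, so the arrays gave no common direction. Hoxd10 (chromosome 2, 74586326 to 74586385) gave 69.3 and 69.1 on array 1 and 66.7 and 72.3 on array 2, with the wildtype pool well above background on 1 array and the mutant pool on neither. Its log2 ratio was 0.00 on array 1 and -0.12 on array 2. A lower level of either gene in mutants could not be told from an equal one at these signals.

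**Figure D2:**
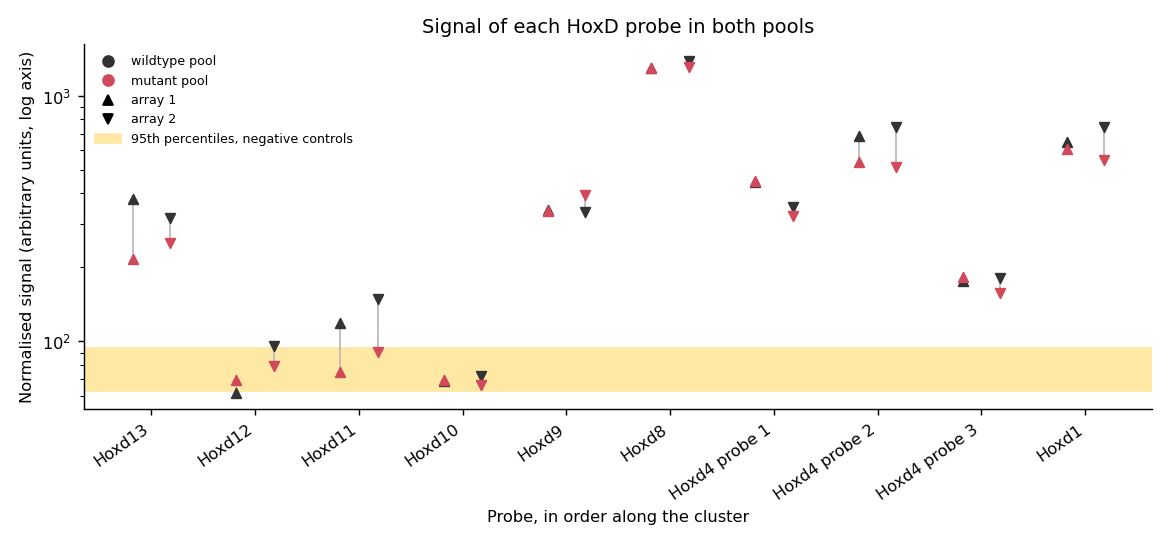
Normalised signal in arbitrary units on a log axis (y axis) of each HoxD probe, in order along the cluster (x axis), for the wildtype pool (black) and the mutant pool (red) on array 1 (upward triangles) and array 2 (downward triangles); the yellow band spans the 95th percentiles of the negative controls, 63.0 to 93.8. Hoxd12 and Hoxd10 lie in or near the band, the mutant pool's Hoxd11 values of 75.2 and 90.5 lie within it, and Hoxd13 shows a wider gap between pools on array 1 than on array 2.

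Because the 2 posterior genes with the lowest ratios are the ones whose control regions a reader would look at first, their promoter windows are shown here, from RefSeq on GRCm38.p6, each of 300 bases from 250 before to 50 after an annotated start, 5′ to 3′ on the plus strand of the gene. Capitals mark matches on either strand to TTTATG or TTTATA, both forms of the core that Cdx factors are known to bind; the reverse complement of the second, TATAAA, is also the usual TATA box. The coordinates are those of GRCm38.p6 and were not aligned with the probe positions above, for which no build is named. Hoxd13 (chr2:74667975-74668274, plus strand) holds TTTATA on both strands, overlapping, between bases -126 and -119 from the start. Hoxd11 has 2 annotated starts: the window of start 1 (chr2:74679308-74679607, plus strand) holds TTTATG on the minus strand at -87 to -82, and that of start 2 (chr2:74682073-74682372, plus strand) holds no match.
Hoxd13: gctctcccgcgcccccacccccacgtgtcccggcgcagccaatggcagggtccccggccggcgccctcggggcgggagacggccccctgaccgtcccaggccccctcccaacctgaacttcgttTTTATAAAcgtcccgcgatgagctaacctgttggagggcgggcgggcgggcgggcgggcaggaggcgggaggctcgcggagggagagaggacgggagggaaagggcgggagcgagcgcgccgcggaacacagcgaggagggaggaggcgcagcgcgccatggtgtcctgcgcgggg
Hoxd11 start 1: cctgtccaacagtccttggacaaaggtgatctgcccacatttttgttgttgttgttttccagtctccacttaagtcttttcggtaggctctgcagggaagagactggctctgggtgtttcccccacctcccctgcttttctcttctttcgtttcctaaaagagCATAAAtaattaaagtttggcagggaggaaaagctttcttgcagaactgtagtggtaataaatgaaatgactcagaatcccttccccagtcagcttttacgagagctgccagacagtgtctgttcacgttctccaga
Hoxd11 start 2: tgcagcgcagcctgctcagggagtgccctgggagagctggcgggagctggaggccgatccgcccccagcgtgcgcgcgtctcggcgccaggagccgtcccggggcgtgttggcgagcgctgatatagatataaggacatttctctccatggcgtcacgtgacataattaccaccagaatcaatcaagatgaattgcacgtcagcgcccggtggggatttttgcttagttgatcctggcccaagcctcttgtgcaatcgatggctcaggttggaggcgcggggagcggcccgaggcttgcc
All 8 member genes matched the RefSeq table, with 9 windows. Of these windows 3 held a match, those of Hoxd13, Hoxd11 start 1 and Hoxd4, which is 33.3%, against 22.8% of all 32851 windows of the same length. TTTATG alone was in 11.9% of all windows and TTTATA in 13.6%. The median GC content of the member windows was 62.0%, against 52.7% over all windows, and they held a median of 20 CpG dinucleotides, against 7. The windows of Hoxd12, Hoxd10, Hoxd9, Hoxd8 and Hoxd1 held neither word. Outside the members, the window of Evx2, whose mean log2 ratio was 0.02, held TTTATA, and that of Hoxd3 held TTTATG. The windows printed were chosen with the ratios known, and a link between matches and ratios was not tested.

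In the middle of the cluster, Hoxd9 and Hoxd8 act in the thoracic and lumbar axis and in the limb bud. Hoxd9 (chromosome 2, 74593442 to 74593501, 27.8 kb from the Hoxd13 probe) gave 341 in the mutant and 344 in the wildtype pool on array 1 and 395 and 336 on array 2. The mutant pool was level on array 1 and higher on array 2, with log2 ratios of -0.01 and 0.24 and a mean of 0.11 ± 0.18 (SD of 2 arrays), the only HoxD mean above 0. Hoxd8 (chromosome 2, 74601265 to 74601324, 35.6 kb) was well measured, with 1292 and 1297 on array 1 and 1303 and 1390 on array 2. Its log2 ratio was -0.01 and -0.09, a mean of -0.05 ± 0.06, which is under the spread between arrays. Neither gene had a software error-model p under 0.05 on either array; the lowest of the 4 was 0.157, for Hoxd9 on array 2. The promoter window of Hoxd8 (chr2:74704365-74704664 on GRCm38.p6, plus strand) holds neither word.
Hoxd8: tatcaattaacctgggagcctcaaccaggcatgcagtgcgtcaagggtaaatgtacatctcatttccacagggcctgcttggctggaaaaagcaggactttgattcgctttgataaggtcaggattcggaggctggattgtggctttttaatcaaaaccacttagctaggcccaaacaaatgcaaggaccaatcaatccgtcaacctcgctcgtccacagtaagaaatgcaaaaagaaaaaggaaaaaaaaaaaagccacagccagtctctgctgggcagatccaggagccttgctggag

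Toward the anterior end, Hoxd4 helps to pattern the cervical vertebrae and the hindbrain and is known to respond to retinoic acid. The 3 probes assigned to it gave different values. Probe 1 (chromosome 2, 74614839 to 74614898, 49.2 kb from the Hoxd13 probe), listed under a clone name that is a synonym of Hoxd4, gave 449 in the mutant and 446 in the wildtype pool on array 1 and 325 and 353 on array 2. Its log2 ratios of 0.01 and -0.12 averaged -0.05 ± 0.09 (SD of 2 arrays). Probe 2 (chromosome 2, 74622975 to 74623034, 57.3 kb) gave 537 and 683 on array 1 and 510 and 749 on array 2, and was thus lower in the mutant pool on both. Its log2 ratios of -0.35 and -0.55 averaged -0.45 ± 0.15, or 1.37-fold lower, short of the size rule on each array. Probe 3 (chromosome 2, 74641665 to 74641724, 76.0 kb) gave 183 and 177 on array 1 and 158 and 182 on array 2. Its log2 ratios of 0.05 and -0.20 had opposite signs and averaged -0.08 ± 0.18.

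Probe 2 was the only HoxD probe with a software error-model p under 0.05 on each array, in the same direction, 0.0211 on array 1 and 0.00107 on array 2. Over the array 1.22% of detected probes met this rule, which was chosen after the data were seen. As the brightest, probe 2 stood for Hoxd4 in the median above; with the median over each gene's detected probes in its place, the HoxD median was -0.17. What the probes measure is not settled by the files. The accessions of probes 2 and 3 match both Hoxd4 and its neighbour Hoxd3, to which no probe was assigned alone. From the start of probe 1 to the end of probe 3 is 26.9 kb, and from the start of probe 2 to the end of probe 3 is 18.75 kb, while RefSeq's annotation of GRCm38.p6 gives Hoxd4 a length of 7.18 kb and Hoxd3 36.3 kb. From the start of probe 1 to the end of probe 2 is 8.20 kb. By these lengths neither probes 1 and 2 nor probes 2 and 3 can both lie within Hoxd4 as annotated there. Since probe positions were not matched to that annotation, the value of -0.45 may be of Hoxd3, of Hoxd4 or of a transcript they share. The window at the annotated start of Hoxd4 (chr2:74721728-74722027 on GRCm38.p6, plus strand) has more matches to the words above than any other member window: TTTATG at -45 to -40 and at 22 to 27, and TTTATA at -10 to -5, all on the plus strand.
Hoxd4: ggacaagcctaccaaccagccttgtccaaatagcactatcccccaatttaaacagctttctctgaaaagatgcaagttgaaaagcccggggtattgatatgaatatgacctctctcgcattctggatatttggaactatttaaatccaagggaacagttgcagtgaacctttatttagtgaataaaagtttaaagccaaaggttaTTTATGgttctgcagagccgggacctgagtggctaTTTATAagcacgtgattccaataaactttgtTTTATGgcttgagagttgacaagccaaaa

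Hoxd1, the most anterior member, is known from sensory neurons and presomitic mesoderm. Its probe (chromosome 2, 74659109 to 74659168, 93.5 kb from that of Hoxd13) gave 609 in the mutant and 651 in the wildtype pool on array 1 and 548 and 746 on array 2. The mutant pool was lower on both arrays, by little on array 1 and more on array 2. The log2 ratios of -0.10 and -0.45 averaged -0.27 ± 0.25 (SD of 2 arrays), or 1.21-fold lower, with a software error-model p of 0.473 on array 1 and 0.00934 on array 2; with median centring the ratio on array 1 turned to 0.33. Among detected probes 2.97% had a lower mean.

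Along the cluster the ratios had no single course from one end to the other. Starting from Hoxd13, the means of the detected member probes ran -0.57, -0.69, 0.11, -0.05, -0.05, -0.45, -0.08 and -0.27, so means below -0.2 lay at both ends of the cluster, and means near 0 in its middle and at probe 3 of Hoxd4. Differences between neighbours such as Hoxd13 and Hoxd11, or Hoxd8 and probe 1 of Hoxd4, were smaller than the SD between arrays. Other probes of the locus lay near 0. Haglr, the antisense RNA beside Hoxd1, had a log2 ratio of 0.11 on array 1 and -0.10 on array 2. It was dim, with normalised signals of 94.8 to 102 over both pools and arrays, where a changed level could not be told from an equal one. The clones U120541 and Q8c6k5, which the files place between Hoxd10 and Hoxd4, had means of 0.09 and 0.00. The strand of these clones and their overlap with coding genes were not examined. Haglros, Hoxd3os1 and Mir10b had no matching probe. Beyond Hoxd13, Evx2, a homeobox gene that shares long-range control with HoxD, lay at 0.02 ± 0.11 (SD of 2 arrays), Atf2 at 0.00 ± 0.22, and Lnpk was not detected. Beyond Hoxd1, Mtx2 lay at -0.18 ± 0.03 and Hnrnpa3 at 0.01 ± 0.52. On the Hoxd13 side 0 of 8 detected genes passed the size rule, with a median of 0.01, and on the Hoxd1 side 0 of 9, with a median of -0.05 (-0.11 with median centring).

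Set beside their paralogs, Hoxd13 and Hoxd11 had the lowest ratio among the detected genes of groups 13 and 11, where the other detected genes were dim. In group 13, Hoxd13 was at -0.57 ± 0.34 (SD of 2 arrays), Hoxa13 at -0.10 ± 0.01 and Hoxb13 at 0.04 ± 0.04, while Hoxc13 was not detected. In group 11, Hoxd11 was at -0.69 ± 0.04 and Hoxa11 at -0.20 ± 0.10, and Hoxc11 had no probe. In group 12 neither Hoxd12 nor Hoxc12 was detected. Group 10, in which Hoxd10 was too dim, held Hoxa10, at -1.05 ± 0.01 or 2.07-fold lower, and Hoxc10, at -0.43 ± 0.02. The call of Hoxa10 was lost with median centring, at -0.55 on array 1 and -1.71 on array 2, a mean of -1.13. In that setting Hoxd8 also differed between the arrays, at 0.47 on array 1 and -0.73 on array 2. Hoxa10 was the lowest detected Hox gene in the reported setting, but in the software's ratio Hoxd11, at -1.68, was below Hoxa10, at -1.09. Hoxa11, Hoxa13 and Hoxb13 were dim, with normalised signals of 70.2 to 89.8 over both pools and arrays. In the software's ratio Hoxa11 was at -0.77, past the size rule, Hoxa13 at -0.52 and Hoxb13 at -0.06. At such signals a lower level could not be told from an equal one. In group 9, Hoxd9 was at 0.11 ± 0.18, Hoxb9 at 0.09 ± 0.25, Hoxc9 at 0.02 ± 0.01 and Hoxa9 at -0.31 ± 0.12. In group 8, Hoxd8 was at -0.05 ± 0.06 and Hoxc8, the other gene measured, at 0.25 ± 0.33, with ratios of 0.01 on array 1 and 0.48 on array 2. In group 4, Hoxd4 by probe 2 was at -0.45, Hoxc4 at -0.35, Hoxa4 at 0.01 and Hoxb4 at -0.03. In group 1, Hoxd1 was at -0.27 and Hoxb1, on the other side of 0, at 0.52.

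By cluster, 1 of 6 detected HoxD genes passed the size rule, 1 of 10 HoxA genes, 0 of 8 HoxB genes and 0 of 6 HoxC genes, against 0.441% of all detected genes. The medians were -0.36 for HoxD, -0.15 for HoxA, 0.02 for HoxB and -0.17 for HoxC. The HoxD median rests on probe 2 of Hoxd4 and was -0.17, level with that of HoxC, with the median over each gene's probes. In HoxB the largest sizes were 0.52 for Hoxb1 and -0.27 for Hoxb7, and in HoxC -0.51 for Hoxc6 and -0.43 for Hoxc10. With 1 pool per genotype, differences between clusters were not tested.

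Genes that act on HoxD or with its proteins mostly fell short of the size rule. The Cdx4 probe was 5.75-fold lower in the mutant pool (-2.52 ± 0.12, SD of 2 arrays), and Cdx2 lay at -0.05 ± 0.09 and Cdx1 at 0.19 ± 0.09; no source used here says whether the probes lie in the deleted parts. The list median of these 3 was -0.05. Of 9 detected TALE-class partners of Hox proteins, Meis1 was higher (1.66-fold, 0.73 ± 0.16), a call lost with median centring, and the median was 0.02. Of 12 signals and receptors known to act on Hox expression, Cyp26a1, which breaks down retinoic acid in the tailbud, was 2.06-fold lower (-1.04 ± 0.08); Gdf11, known to bring on posterior Hox genes, was at -0.15 ± 0.27, and the median was -0.10. Of 23 detected Polycomb, trithorax and boundary factors, which keep Hox clusters closed or open, 0 passed the size rule and the median was 0.04; the largest sizes were 0.24 for Phc1 and 0.23 for Ezh2.

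Markers of several other cell types of the dissected tissue were past the size rule. All 8 tailbud and presomitic markers were detected, with a median log2 ratio of 0.04 and 1 past the size rule, Dll1 (0.67, not with median centring). Short of the rule, T was at -0.50 ± 0.03 and Wnt3a at -0.46 ± 0.05. The summed normalised signal of the 8 was 9200 to 9475 in the mutant pool and 10630 to 11342 in the wildtype pool. T alone gave 5113 and 5241 of it in the mutant pool and 7325 and 7264 in the wildtype pool, so this sum mostly follows T. Each sum in this paragraph is weighted toward its brightest probes. Of 5 detected somite markers, 3 were higher (Meox1, Tcf15 and Foxc2) with a list median of 1.36, Uncx was not detected, and their summed normalised signal was 3903 to 4376 in the mutant pool and 2705 to 2768 in the wildtype pool. Of 6 endothelial markers 2 were lower (Cldn5 and Sox18, the latter not with median centring or without background subtraction), the median was -0.45 and the sum was 1973 to 2205 against 3259 to 3360. Of 8 markers of lateral plate, limb bud and allantois, 0 passed, 6 were below 0 on both arrays, the median was -0.15 and the sum was 3338 to 3757 against 4322 to 4546; Pitx1, of the hindlimb field, was at -0.48 and Hand2 at -0.39. Some markers in these lists lay near 0, such as Tbx5 (-0.01), Hes7 (0.02) and Pax3 (0.02). Pax3 was bright, with normalised signals of 1858 to 1925 over both pools and arrays. Tbx5 (74.2 to 83.3) and Hes7 (85.0 to 109) were dim, and at such signals a changed level could not be told from an equal one. Sox2 was higher among 4 detected neural markers (median 0.41, not called with median centring) and Trh among 6 hindgut markers (median 0.09). The medians were 0.10 for 5 intermediate mesoderm markers, led by Lhx1 (0.49 ± 0.73, above 0 on array 2 alone) and Pax8 (0.21), -0.03 for 2 of notochord (Shh at 0.02 and Foxj1 at -0.08), -0.10 for 4 of blood (Alas2 at -0.23 and Klf1 at -0.11) and 0.01 for 7 of heart and head (Lhx2 at -0.82 on array 1 and 0.26 on array 2, and Emx2 at a mean of 0.28), with 0 past the rule in each. In such bulk tissue, fewer cells that express a HoxD gene and less of its RNA per cell cannot be told apart, and the part of these tissue markers in the HoxD values was not tested.

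**Figure D3:**
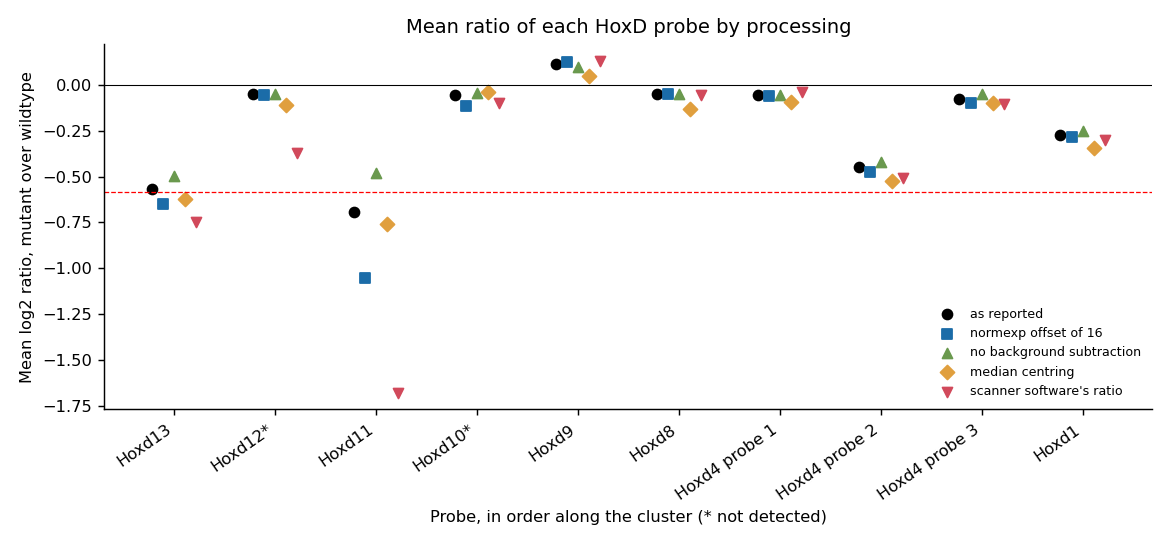
Mean log2 ratio of mutant over wildtype (y axis) of each HoxD probe, in order along the cluster (x axis, undetected probes starred), as reported and under 4 other ways of background correction and normalisation; the red line marks 1.5-fold lower. Hoxd11 moves most, from -0.48 to -1.68, Hoxd13 from -0.50 to -0.75, and Hoxd9 stays between 0.05 and 0.13.

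How far each ratio depended on processing differed among the members. Over the reported setting and the alternatives with both arrays, Hoxd11 ranged from -1.68 to -0.48, Hoxd13 from -0.75 to -0.50, probe 2 of Hoxd4 from -0.52 to -0.42 and Hoxd1 from -0.34 to -0.25. Hoxd8 stayed between -0.13 and -0.05, probes 1 and 3 of Hoxd4 between -0.10 and -0.04 and between -0.11 and -0.05, and Hoxd9 between 0.05 and 0.13. The order of Hoxd13 and Hoxd11 reversed without background subtraction, where Hoxd13 was at -0.50 and Hoxd11 at -0.48.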

How the data were processed

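Each array file lists its spots as scanned. As deposited, intensity is each spot's mean Cy3 and Cy5 brightness and its median local background, uncorrected per the file headers. A log10 ratio (Cy5 over Cy3) and its p-value, both deposited, come from the scanner software's dye normalisation and error model. Agilent Feature Extraction is version 9.5.3 per the submitters' processing notes and 7.5.1 per the file headers. Marks for background, saturation and outliers were used as deposited.

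Intensities were corrected with limma 3.58.1 in R 4.3.3 (normexp, offset 50) and loess-normalised within each array, control spots at weight 0. Outlier spots were left out (219 on array 1 and 98 on array 2, of 41174). Ratios were turned to mutant over wildtype. Spots of a probe were averaged, and the brightest detected probe stood for a gene. Probe positions are those of the files. Names came from accessions, current symbols and, failing these, synonyms through a RefSeq table of GRCm38.p6. By accession, 544 probes matched several genes. The number of arrays limits the precision. Of all gene spots, 77.4% to 82.5% were well above background, by pool and array.

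Genes named were all members, list genes past the size rule or the 2 largest sizes, posterior paralogs and the 2 nearest neighbours measured on each side; paralogs of groups 1, 4, 8 and 9, Cdx1, Cdx2, Gdf11, T, Wnt3a and the 2 unnamed clones were added after their values were seen. The members and the 12 gene and 10 marker lists were chosen with earlier results of these data known. Probe sequences and proteins were not used here, and values of some other genes are not reported here.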

Additional observations from a re-analysis of the deposited data

How the results depend on the processing

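The HoxD median of -0.36 was -0.17 with the median over each gene's probes, -0.16 without the detection filter (8 genes) and -0.30 to -0.22 with either array left out (-0.30 is over 8 genes, since Hoxd10 and Hoxd12 count as detected on array 2 alone). The count of 1 HoxD probe past the size rule was 0 at 2-fold, 0 without background subtraction, and 1 to 2 with either array left out (Hoxd13 joined Hoxd11 on array 1 alone). The array-wide count of 128 was 375 at 1.3-fold, 28 at 2-fold (21 higher and 7 lower), 196 by the mean of both arrays, 196 with an offset of 16, 47 with median centring (63.8% higher, against 49.2%), 436 with the software's ratio, 388 by the software's p under 0.05 (a rule added after the data were seen), and 532 to 676 with either array left out (384 higher and 148 lower on array 2 alone, 108 and 568 on array 1 alone). Of 60 ratios of the 10 probes under the 6 alternatives with both arrays, 54 moved by less than the probe's own SD between arrays, 6 moved more and 0 reversed. Among these alternatives, Aquantile normalisation between arrays and keeping outlier spots could change no HoxD ratio, so their share of the 54 was fixed in advance. The yardstick is also wide for probes whose arrays differed, such as Hoxd13 (SD 0.34). The cause of each change was not tested. No paired analysis was possible because both arrays hold the same pools and form 1 comparison. Signal over background limits Hoxd10, Hoxd11 and Hoxd12.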
